A study of Mus musculus with 9 samples.

Results

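The 9 genes described here control entry into the cell cycle and the p53 response: Trp53, its antagonist Mdm2, the CDK inhibitors Cdkn1a, Cdkn1b, Cdkn1c, Cdkn2a and Cdkn2b, and the D-type cyclins Ccnd1 and Ccnd2. PBRM1 (also called BAF180) and BRG1 were mapped by ChIC-seq, in which an antibody carries micrococcal nuclease to its target and the released fragments are sequenced. The cells were primary oviductal smooth muscle cells of WT mice on day 2 of pregnancy, isolated at 8 to 12 weeks of age and kept in dishes for some hours before fixation. All libraries shared this genotype, stage and handling, and only the antibody differed, with 3 libraries each for PBRM1 and BRG1. The cells were separated from the digested oviduct by a filter alone, and the labels do not state whether animals were pooled or whether the 3 libraries of an antibody came from separate cultures, so each p-value below measures the spread between these libraries. Also labelled were 3 IgG samples, which were not analysed here, so no background track stands beside the peaks.

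Peaks were taken from the 6 replicate lists and 2 pooled lists. Overlapping peaks of the replicate lists were merged into regions, and a region belonged to a gene when its highest summit lay in the gene body or within 20 kb of it. A region was called a promoter region when its summit was within 2 kb of an annotated transcript start of any gene, and distal otherwise. The 9 windows held 42 of the 82959 regions in the genome, 28 at promoters and 14 distal. Occupancy is given as pileup in FPM, the number of fragments covering a summit per 1000000 fragments in that library's header. A library without a listed peak has no value at that place, which is not a value of 0.

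BRG1 is the ATPase motor of the SWI/SNF chromatin remodelling complexes, and PBRM1 is a bromodomain subunit that belongs to the PBAF form only. p53, the product of Trp53, is a transcription factor that is held at low levels by the ubiquitin ligase MDM2 and that, once stabilised, activates Cdkn1a and Mdm2 itself. The CIP/KIP inhibitors p21, p27 and p57 (Cdkn1a, Cdkn1b, Cdkn1c) and the INK4 inhibitors p16 and p15 (Cdkn2a, Cdkn2b) block cyclin-dependent kinases, ARF (a second product of Cdkn2a) restrains MDM2, and the D-type cyclins drive the kinases that inactivate RB. Smooth muscle cells are mostly quiescent in tissue and can re-enter the cycle in a dish.

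Sequences were read from the GRCm38.p6 reference at or beside the summits of regions that carried the main observations, on the strand of the named gene and without UTR bases. The first 4 are from members' own promoter regions found in all 6 replicate lists, at the summit or, for Trp53, beside it, since the summit lies in UTR bases. Such stretches were read at Cdkn1a, Cdkn1b, Trp53, Cdkn2b and Ccnd1, and those that hold a searched motif are shown. Cdkn1c was not read, although its region holds 8 GGGCGG and 3 CCAAT matches within 250 bp of the summit. In these first 4, every match is in capitals: GGGCGG (the core of SP and KLF sites), CCAAT (NF-Y), TTCCCGC (E2F) and TGANTCA (AP-1), each on either strand.
Cdkn1a at its main start, chr17:29093620-29093768, + strand: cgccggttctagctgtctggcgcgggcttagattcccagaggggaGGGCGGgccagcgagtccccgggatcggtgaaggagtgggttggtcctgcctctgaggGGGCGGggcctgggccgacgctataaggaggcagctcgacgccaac
Cdkn1a downstream of the start, chr17:29095463-29095613, + strand: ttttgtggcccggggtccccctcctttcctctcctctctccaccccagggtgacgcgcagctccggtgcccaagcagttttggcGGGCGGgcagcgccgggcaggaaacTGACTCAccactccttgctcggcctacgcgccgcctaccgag
Cdkn1b, chr6:134920230-134920380, + strand: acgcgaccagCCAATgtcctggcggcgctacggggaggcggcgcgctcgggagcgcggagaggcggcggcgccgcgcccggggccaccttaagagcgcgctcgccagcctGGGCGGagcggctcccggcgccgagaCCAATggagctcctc
Trp53 and Wrap53, chr11:69579325-69579381, + strand: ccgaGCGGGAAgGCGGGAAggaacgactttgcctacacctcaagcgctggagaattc

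The other 3 hold a p53 response element (in capitals), defined as 2 half-sites of 10 bp with purines around a C, the central A or T pair and a G, then pyrimidines, separated by 0 to 3 bp, with both C and G kept and at most 1 mismatch elsewhere. Only p53 elements are marked in these 3, and other motifs, such as a TGANTCA match in the Mdm2 stretch, are left in lower case.
Mdm2 upstream region, chr10:117717670-117717820, - strand: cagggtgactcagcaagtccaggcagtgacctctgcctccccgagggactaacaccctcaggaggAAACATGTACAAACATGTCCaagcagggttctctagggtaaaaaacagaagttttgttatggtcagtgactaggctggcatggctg
Trp53cor1 promoter in the Cdkn1a window, chr17:29078973-29079123, + strand: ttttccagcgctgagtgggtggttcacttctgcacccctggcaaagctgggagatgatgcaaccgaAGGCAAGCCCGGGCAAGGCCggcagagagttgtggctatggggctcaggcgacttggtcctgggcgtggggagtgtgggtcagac
Cdkn1a upstream element, outside all peaks, chr17:29090917-29090957, + strand: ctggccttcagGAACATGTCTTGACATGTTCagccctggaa

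Peaks shared by all libraries lay at promoters in the windows of the 9 genes. Of the 42 regions, 10 had a peak in all 6 replicate lists, and 0 of the 14 distal regions were among them. Each of the 10 had its summit within 2 kb of an annotated start, and with a limit of 1 kb 2 of them became distal. Over all genes, 14.0% of the 21884 protein-coding genes had a distal region found in all 6 lists in the same kind of window, and 8.52% of the 14241 genes with a window of at most 70000 bp (the members' windows spanned 42712 to 67032 bp). The members' count of 0 out of 9 is therefore near the background. Across the genome 7.79% of distal regions and 32.8% of promoter regions were found in all 6 lists. The other member regions had weaker support, with 14 seen in 1 list only, 6 in 2, 5 in 3, 4 in 4 and 3 in 5.

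**Figure D1:**
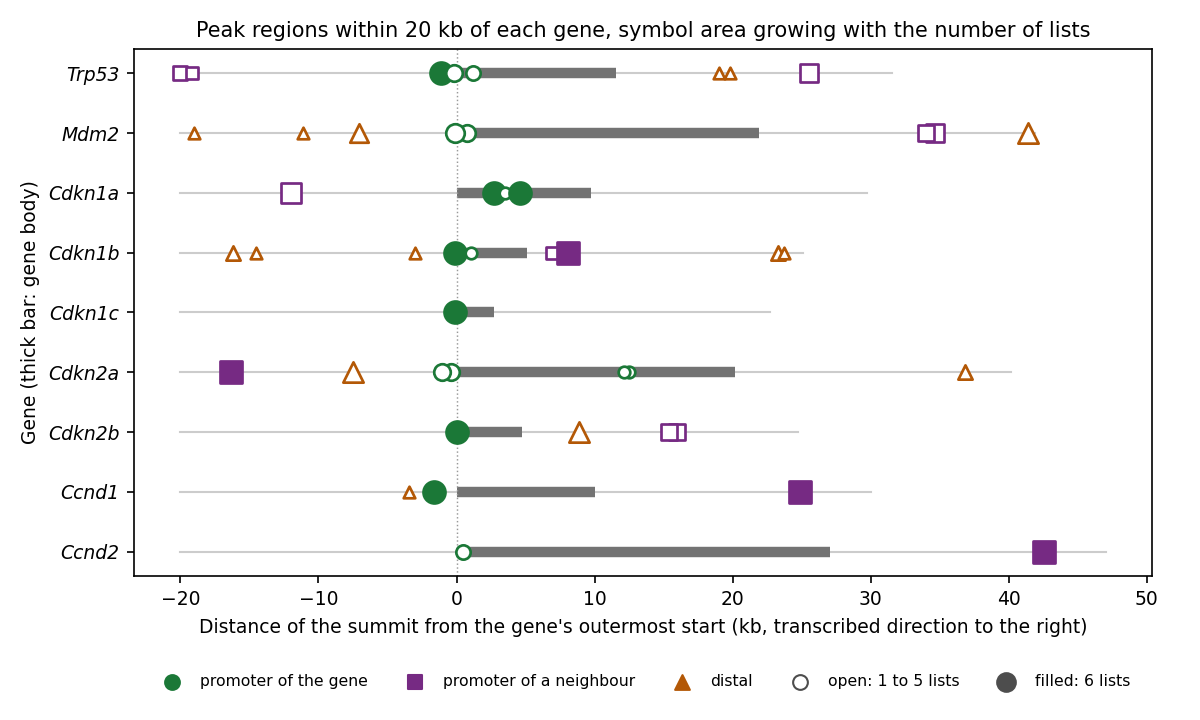
Position of every peak region in the windows of the 9 genes, by distance of its summit in kb from the gene's outermost annotated start, with the transcribed direction to the right and the gene body as a thick bar. Symbol area grows with the number of replicate lists that hold a peak, and filled symbols, all at promoters, mark the 10 regions in all 6 lists; the 4 regions shared by the Cdkn2a and Cdkn2b windows are drawn in both, and both filled Cdkn1a symbols lie inside the gene because an alternative transcript starts farther upstream.

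Promoters of 6 of the 9 genes (Trp53, Cdkn1a, Cdkn1b, Cdkn1c, Cdkn2b and Ccnd1) carried a peak in all 6 lists, against 41.4% of all protein-coding genes. With peaks of a −log10 q of at least 5 only, 3 of these 6 (Trp53, Cdkn1a and Cdkn1b) kept a peak in every list. The share over all genes at this cutoff was not computed. All 3 PBRM1 lists held a peak at 6 of the 9 promoters (43.8% of all genes) and all 3 BRG1 lists at 8 of the 9 (49.6% of all genes). No member lacked a promoter peak in every replicate list, whereas 34.9% of all genes did, and both pooled lists held a promoter peak for each of the 9. The median number of regions per window was 4 for the members and 3 over all genes, or 0.894 and 0.480 per 10 kb.

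**Figure D2:**
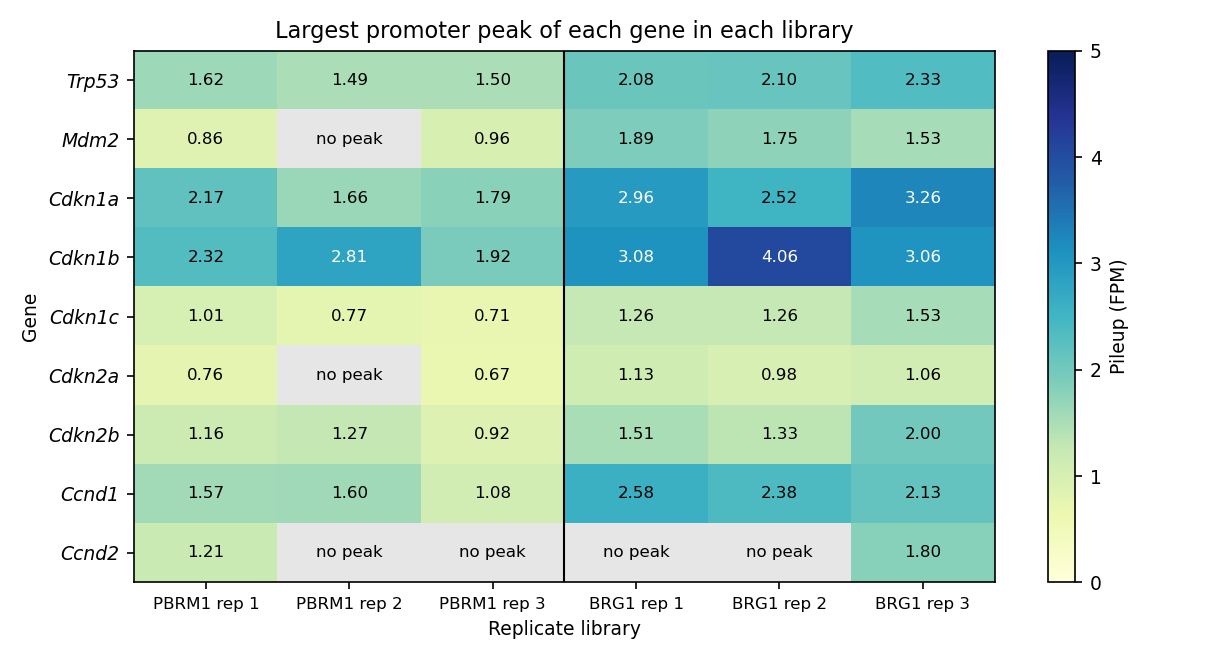
Largest promoter peak of each gene (rows) in each replicate library (columns, PBRM1 left and BRG1 right of the line), as pileup in FPM, with grey cells for libraries without a listed peak. Cdkn1b has the largest values, from 1.92 to 4.06, and Ccnd2 has a value in 2 libraries only.

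At Trp53 the region listed in the most replicate lists lay near a start of its divergent neighbour Wrap53 and not at the first exon of Trp53. The region found in all 6 lists, chr11:69579063-69579512, had its summit 64 bp from a start of Wrap53, which encodes a telomerase component and is transcribed on the opposite strand, and at position -1099 from the nearest Trp53 start. PBRM1 pileup there was 1.62, 1.49 and 1.50 FPM and BRG1 pileup 2.08, 2.10 and 2.33 FPM, so the groups did not overlap. Every BRG1 library was likewise above every PBRM1 library at 56.8% of all regions found in all 6 lists. The region nearest to the Trp53 start, chr11:69580037-69580501 (position -219), also had its summit closer to a start of Wrap53, at 115 bp. It was listed in 3 libraries, at 1.36 and 1.38 FPM in PBRM1 replicates 1 and 3 and 1.95 FPM in BRG1 replicate 1. A further region in the first part of the gene, chr11:69581246-69581636, was listed only in replicate 1 of each antibody, at 1.31 and 2.08 FPM. In the pooled BRG1 list, however, this region was the strongest Trp53 peak, at 2.43 FPM (−log10 q of 37.7) against 1.99 FPM (24.7) at position -1099, while in the pooled PBRM1 list it had 1.29 FPM against 1.49 FPM. Counting summits within 1 kb of a Trp53 start, 4 of the 6 lists remained.

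The rest of the Trp53 window held the starts of neighbours and weak distal peaks. The Atp1b2 promoter (a sodium pump subunit gene) had a peak in all 3 BRG1 lists, at 1.13, 1.47 and 1.20 FPM, and in PBRM1 replicate 1 at 0.808 FPM. The Efnb3 start (an ephrin gene) had a region in 2 lists and another in 1. Of the 2 distal regions, each seen in 1 BRG1 library, the values were 0.881 and 0.865 FPM.

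Mdm2 showed opposite list support at its start and at an upstream region. At the first Mdm2 start the region chr10:117710539-117711037, with the summit at position -100, was listed in all 3 BRG1 libraries at 1.89, 1.75 and 1.53 FPM and in PBRM1 replicate 3 alone at 0.959 FPM. At the upstream region chr10:117717353-117718300, with the summit at position -7062, all 3 PBRM1 libraries were listed, at 1.52, 1.16 and 1.29 FPM, and BRG1 only in replicate 3, at 1.20 FPM. Both places were peaks in both pooled lists: pooled pileup was 0.905 (PBRM1) and 1.68 (BRG1) FPM at the start and 1.11 and 1.15 FPM upstream. A missing value left both places out of the fit across regions, so the difference in pattern was not tested. A peak at an internal start, chr10:117709943-117710224, was listed in 3 libraries at 0.859 to 1.20 FPM, and Mdm2 promoter support reached 5 of 6 lists, with PBRM1 replicate 2 missing.

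The upstream Mdm2 region held a p53 element that lay inside a peak of each pooled list. The element AAACATGTACAAACATGTCC, printed in context above, lies at position -6987 from the first start, inside the merged region listed in 4 libraries. How many of their own peaks cover it was not counted. Both pooled lists held a peak over it, but with BRG1 that was not the highest peak of the region, chr10:117718015-117718422. Within 250 bp of the summit, 2 of the 14 distal member regions held such an element, this one and a region at position -11102 listed in PBRM1 replicate 1 only, whose element lies outside its peaks. The summit used at position -7062 was that of the highest replicate peak. The highest pooled summits of that region, chr10:117718100 (PBRM1) and chr10:117718129 (BRG1), lie more than 250 bp from the element. Over the genome, 355 of 57528 distal regions (0.617%) held one within the same distance. Farther from the start, the distal region chr10:117669241-117669818 beyond the gene's end was listed in 5 libraries at 0.606 to 0.980 FPM, missing BRG1 replicate 3, and 2 regions at the Cpm start (a carboxypeptidase gene) were listed in 4 and 3 libraries.

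Cdkn1a had 2 strong promoter regions, one on each side of its main start. The first, chr17:29093459-29093938 with the summit 78 bp upstream of the start of transcript Cdkn1a-201, had PBRM1 pileup of 1.62, 1.32 and 1.79 FPM and BRG1 pileup of 2.89, 2.52 and 3.06 FPM, without overlap. The second, chr17:29094708-29095783 with the summit 1757 bp downstream of the nearest Cdkn1a start, had 2.17, 1.66 and 1.33 FPM for PBRM1 and 2.96, 2.17 and 3.26 FPM for BRG1, and here the highest PBRM1 library met the lowest BRG1 library. Both regions are also within 2 kb of AC167363.2, an unclassified transcript on the opposite strand. In the pooled PBRM1 list the regions reached 1.53 and 1.52 FPM and in the pooled BRG1 list 2.76 and 2.72 FPM. A region between them was listed in BRG1 replicate 2 only, at 1.75 FPM.

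The p53 elements around Cdkn1a were in part outside the peaks. The element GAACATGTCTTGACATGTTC, with 1 mismatch like the other elements found, lies at position -39 from the start of the upstream transcript Cdkn1a-204, and no replicate list and neither pooled list held a peak over it. No replicate list held a promoter peak at that outermost Cdkn1a start. The element AGGCAAGCCCGGGCAAGGCC lies inside the region chr17:29078850-29079299 at the start of Trp53cor1, the gene of the p53-induced long non-coding RNA lincRNA-p21. This region was listed in 5 libraries, at 1.26, 1.16 and 1.00 FPM for PBRM1 and 1.64 and 1.46 FPM for BRG1 replicates 1 and 3. It was the only one of the 28 promoter regions in the member windows with an element within 250 bp of the summit, against 98 of 25431 promoter regions (0.385%) in the genome. In all 9 windows 14 elements were found. The Mdm2 and Trp53cor1 elements were inside a region of the replicate lists and a peak of both pooled lists. The other 12 were outside every replicate and pooled peak, while regions covered 4.34% of the window sequence. A match is a description of letters, and p53 itself was not measured.

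Cdkn1b had the highest promoter pileup of the 9 genes with both antibodies. Its region chr6:134919974-134920838, with the summit 92 bp upstream of the start, had 2.32, 2.81 and 1.92 FPM in the PBRM1 libraries and 3.08, 4.06 and 3.06 FPM in the BRG1 libraries, without overlap. The mean PBRM1 pileup of 2.35 ± 0.449 FPM (SD, n = 3) ranked at percentile 95.4 of the 8351 promoter regions found in all 6 lists, and the BRG1 mean of 3.40 ± 0.571 FPM (SD, n = 3) at percentile 93.1. A region 948 bp into the gene was listed in BRG1 replicate 2 only, at 1.47 FPM.

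Downstream of Cdkn1b the start of Lockd, a long non-coding RNA gene known as a neighbour of Cdkn1b, was also found in all 6 lists. This region, chr6:134928165-134928762, had 1.97, 1.88 and 1.71 FPM for PBRM1 and 3.08, 2.87 and 2.53 FPM for BRG1, and a start of Gm44238 on the other strand lies within 2 kb of it. Another Lockd region was listed in PBRM1 replicate 1 only. The window held 5 distal regions, the most of the 9, and none was in more than 2 lists. The largest by pileup summed over the libraries were at position -16169, with 0.980 and 0.865 FPM in BRG1 replicates 2 and 3, and 23192 bp downstream, with 0.667 FPM in PBRM1 replicate 3 and 0.910 FPM in BRG1 replicate 2. The highest single value, 1.06 FPM, was in PBRM1 replicate 1 at position -2989, and no other replicate list held that region.

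Cdkn1c, an imprinted gene, had 1 region of the replicate lists in its whole window, and it was found in all 6 lists. The pooled lists held more peaks there, 2 with PBRM1 (1 distal) and 3 with BRG1 (0 distal). The region chr7:143460714-143461257, with the summit 102 bp upstream of the start, had 1.01, 0.772 and 0.709 FPM for PBRM1 and 1.26, 1.26 and 1.53 FPM for BRG1, without overlap. Its means were the lowest of the members found in all 6 lists, at percentile 8.85 for PBRM1 and 17.6 for BRG1 among such promoter regions. Limited to peaks with a −log10 q of at least 5, its promoter was in 2 lists. A start of Gm44732, an antisense transcript, lies in the same region.

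The promoters of the INK4 genes had different list support (not tested), although they are neighbours on chromosome 4 and their windows shared 4 regions. Cdkn2b had a region found in all 6 lists, chr4:89310427-89311430 with the summit 32 bp from its start, at 1.16, 1.27 and 0.917 FPM for PBRM1 and 1.51, 1.33 and 2.00 FPM for BRG1. The groups did not overlap, with 1.27 as the highest PBRM1 and 1.33 as the lowest BRG1 value. Cdkn2a had no region in all 6 lists. At the start used for the p16 transcript, 1 region was listed in PBRM1 replicate 3 at 0.667 FPM and another in BRG1 replicate 2 at 0.980 FPM. At the start used for the ARF transcript, the region chr4:89294726-89295264 was listed in PBRM1 replicate 1 at 0.758 FPM and in BRG1 replicates 1 and 3 at 1.13 and 1.06 FPM. A second region there, chr4:89295557-89295823, was listed in all 3 BRG1 libraries, at 1.01, 0.770 and 0.998 FPM, and in no PBRM1 library.

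Between both INK4 genes lay the distal region chr4:89301862-89302277, which was listed in 5 libraries and missed PBRM1 replicate 2. Its values were 0.960 and 0.750 FPM for PBRM1 and 0.881, 0.770 and 0.931 FPM for BRG1, so here the groups overlapped. A distal region beyond the end of Cdkn2a was listed in BRG1 replicates 2 and 3 at 0.770 and 0.931 FPM. PBRM1 replicate 2, which alone was missing at the promoters of Cdkn2a and Mdm2, had the fewest peaks of the 6 lists, and 14 in the 9 windows against 23 to 28 in the other libraries; its part in these gaps was not tested. Without it, 8 of the 9 promoters had a peak in every remaining list, and the share over all genes without it was not computed.

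The D-type cyclins also had different list support (not tested). Ccnd1 had a region found in all 6 lists, chr7:144941161-144941897, whose summit lay 1597 bp from the nearest start, upstream of the gene, so that no list supported it within 1 kb. PBRM1 pileup was 1.57, 1.60 and 1.08 FPM and BRG1 pileup 2.58, 2.38 and 2.13 FPM, without overlap. A distal region behind it, at position -3445, was listed in PBRM1 replicate 1 only, at 1.11 FPM. At the far end of the window the start of LTO1, a ribosome maturation gene next to the non-coding Bc1, was in all 6 lists, at 1.13 to 1.27 FPM for PBRM1 and 1.73 to 2.03 FPM for BRG1. Ccnd2 had the promoter listed in the fewest libraries of the 9: the region chr6:127151553-127151996 was listed in PBRM1 replicate 1 at 1.21 FPM and BRG1 replicate 3 at 1.80 FPM only.

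The window of Ccnd2 nevertheless held a region in all 6 lists, at the start of Tigar. TIGAR is a p53-induced regulator of glycolysis, and its promoter region chr6:127109200-127109908 had 1.52, 1.38 and 1.13 FPM for PBRM1 and 2.64, 2.45 and 2.26 FPM for BRG1, without overlap. It also had the highest enrichment over local background of the member regions, 7.21-fold in the pooled PBRM1 list and 11.0-fold in the pooled BRG1 list, against 5.98-fold and 6.10-fold at Cdkn1b and 3.64-fold and 4.16-fold at the Cdkn1a start.

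**Figure D3:**
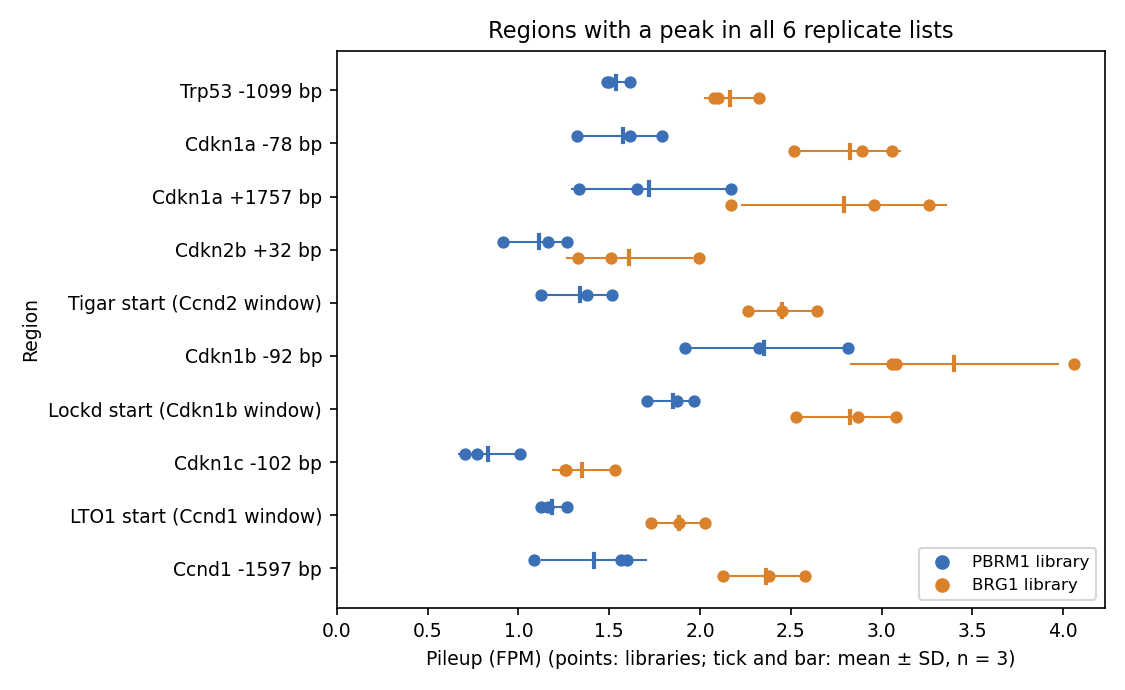
Pileup in FPM (horizontal axis) at the 10 member regions found in all 6 lists, with PBRM1 libraries in blue and BRG1 libraries in orange; ticks and bars give mean ± SD (n = 3). In 9 of the 10 regions every BRG1 library lies above every PBRM1 library, as at 56.8% of all regions found in all 6 lists, and at the downstream Cdkn1a region they meet at 2.17.

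Ordered by mean PBRM1 pileup, the member promoter regions found in all 6 lists ran from Cdkn1b (2.35 FPM) through the downstream Cdkn1a region (1.72), the Cdkn1a start (1.58), Trp53 (1.54), Ccnd1 (1.42) and Cdkn2b (1.12) to Cdkn1c (0.830). The ranges of every pair of neighbours in that order overlapped between libraries. Within each PBRM1 library, however, Cdkn1b was above the downstream Cdkn1a region, Ccnd1 above Cdkn2b, and Cdkn2b above Cdkn1c. The other neighbours changed order between libraries, and no order was tested. With BRG1 the order was Cdkn1b (3.40 FPM), the Cdkn1a start (2.82), the downstream Cdkn1a region (2.80), Ccnd1 (2.36), Trp53 (2.17), Cdkn2b (1.61) and Cdkn1c (1.35). Of these neighbours, Trp53 and Cdkn2b did not overlap, Cdkn1b and the Cdkn1a start met at 3.06, and the others overlapped. Within each BRG1 library, Trp53 was above Cdkn2b, Cdkn2b above Cdkn1c, and Cdkn1b above or level with the Cdkn1a start. The remaining neighbours changed order between libraries. These are heights of fragment pileups of 14 to 58 fragments per library at the summit, and duplicates were kept in the peak calling, so counting intervals would be too narrow and none is given.

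BRG1 pileup (in FPM) was higher than PBRM1 pileup at all 10 member regions found in all 6 lists, by 1.41-fold at Trp53 to 1.84-fold at Tigar. In a limma fit over all 12830 such regions, all 10 passed an adjusted p of 0.05 in that direction, but so did 52.9% of all regions, and 0.413% passed in the other direction. The median log2 difference over all regions was 0.485 (1.40-fold), and that of the 10 member regions was 0.687. The compared set held 8351 promoter and 4479 distal regions, while all 10 member regions were promoter regions. A promoter-only set was not compared, so the shares and medians given here are not matched by class. Relative to the genome-wide median, the largest member differences were 0.39 (log2) at Tigar and 0.36 at the Cdkn1a start, and the smallest was 0.01 at Trp53. After centring each library on its median, 0 of the 10 passed (limma, lowest adjusted p = 0.135) and 2, Tigar and the Cdkn1a start, had an unadjusted limma p under 0.05; quantile normalization also gave 0 of the 10. In the centred fit, 2.45% of all regions passed as higher with BRG1 and 2.24% as higher with PBRM1. Without centring, every BRG1 library was above every PBRM1 library at 9 of the 10, against 56.8% of all regions, and the reverse held at 0 of the 10 and at 0.756% of all regions. The BRG1 libraries had fewer fragments (14284532 to 15897724) than the PBRM1 libraries (18126049 to 23992352), and antibody, depth and occupancy cannot be told apart in the shared shift.

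For single regions, the fitted log2 difference at the Cdkn1a start was 0.85 (95% interval 0.48 to 1.21, limma adjusted p = 0.000135), and after centring it was 0.38 (0.05 to 0.71, adjusted p = 0.165). Tigar stood at 0.88 (0.50 to 1.25, adjusted p = 0.000139) before and 0.41 (0.08 to 0.75, adjusted p = 0.135) after centring. At the other end, Trp53 had 0.50 (0.12 to 0.87, adjusted p = 0.0213) before and 0.03 (-0.30 to 0.36, adjusted p = 0.934) after centring. Cdkn1b was close to Trp53 in this respect, with 0.54 (0.20 to 0.88, adjusted p = 0.00699) before and 0.07 (-0.23 to 0.38, adjusted p = 0.824) after. Fold enrichment over local background in place of pileup left 1 of the 10, Tigar, past the threshold (limma adjusted p = 0.0311), and at Cdkn1c the difference turned to -0.058. Of all regions, 10.7% passed as higher with BRG1 in that fit, so the count of 1 of 10 is near the background. The call was lost at Trp53 without PBRM1 replicate 2 (limma adjusted p = 0.0568) or BRG1 replicate 3 (0.0872), at Cdkn1b without PBRM1 replicate 3 (0.0543) or BRG1 replicate 2 (0.0822), and at Cdkn2b without PBRM1 replicate 3 (0.146), BRG1 replicate 1 (0.0508) or BRG1 replicate 3 (0.215).

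**Figure D4:**
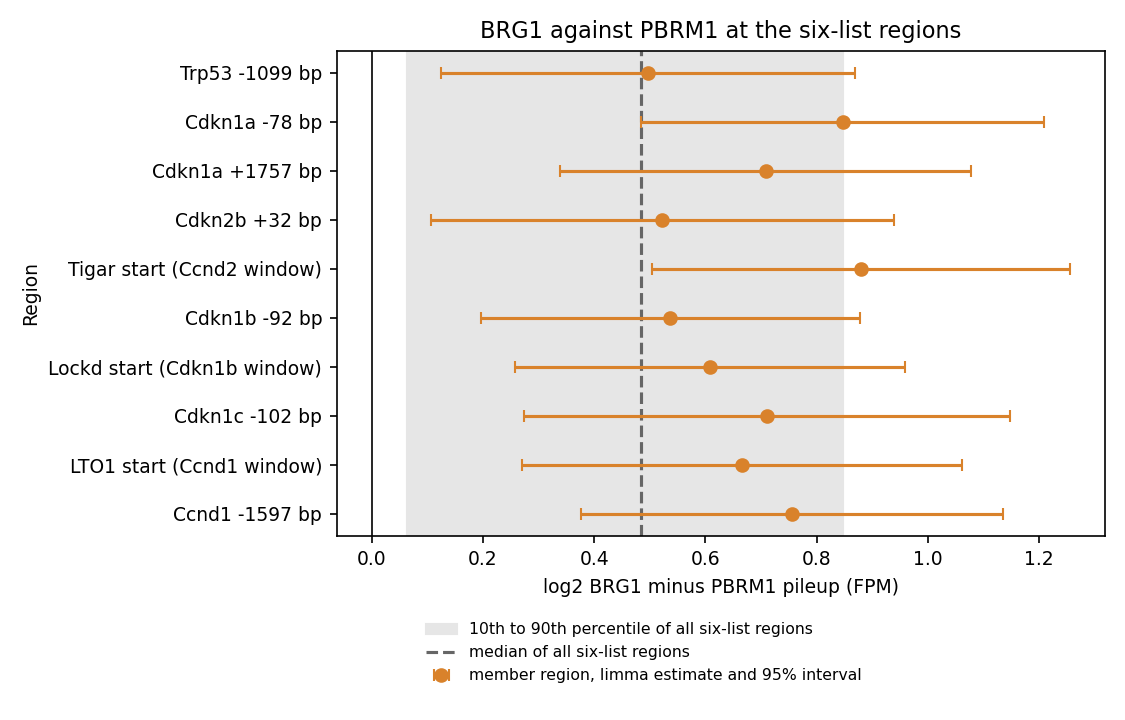
Fitted log2 difference of BRG1 minus PBRM1 pileup (horizontal axis) with 95% intervals at the 10 member regions, all at promoters. The 10th to 90th percentile (grey) and median (dashed) are those of all regions found in all 6 lists, promoter and distal together. All 10 estimates lie right of 0 and right of the median of 0.485, and 8 of the 10 intervals cross that median, while that of the Cdkn1a start begins at the median in the printed digits and that of Tigar at 0.50.

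Summed over the 9 windows, promoter pileup was 21.0 ± 5.54 FPM in the PBRM1 libraries and 35.6 ± 2.24 FPM in the BRG1 libraries (SD, n = 3 each). The groups did not overlap and the exact two-sided permutation test gave p = 0.1, the smallest that 3 against 3 allows. The sums add listed peaks only, so a library without a listed peak adds nothing at that place. No sum over all genes was set beside them, and BRG1 pileup was 1.4-fold higher in the median of all regions found in all 6 lists. Distal pileup went the other way without being separable, at 4.75 ± 2.70 FPM for PBRM1 and 3.93 ± 1.18 FPM for BRG1 (exact permutation p = 0.7). In numbers of peaks, the promoters held 21, 12 and 16 in the PBRM1 libraries and 20, 18 and 19 in the BRG1 libraries (exact permutation p = 0.5), and distal sites held 7, 2 and 7 against 3, 5 and 5 (exact permutation p = 0.6). Without PBRM1 replicate 1 the difference in distal pileup changed sign, to 0.313 FPM, and both distal comparisons changed sign with an equal number of peaks per list or a window of 50 kb.

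The motif content of the 10 member summits is given beside that of all promoter regions found in all 6 lists. Within 250 bp of the summit, GGGCGG was present at 8 of the 10 member regions and at 76.3% of the 8351 promoter regions. CCAAT was present at 6 of the 10 (3 within 100 bp) and at 51.5%, and TTCCCGC at 4 of the 10 (Trp53 and Wrap53, the downstream Cdkn1a region, Lockd and Ccnd1) and at 14.2%. TGANTCA occurred at 1, the downstream Cdkn1a region, against 10.7%, and a CArG box (the serum response factor site of smooth muscle genes) at 1, the Tigar start, against 2.08%. A p53 element occurred at 0 of the 10 and at 0.156% of all. No matches overlap in the printed sequences. The median GC content was 61.1% for the members and 61.9% for all, and the median number of CpG dinucleotides 36 and 37.

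Promoter peaks were also common in the wider pathway. Of 45 further genes of the p53 and RB pathways, 34 had a promoter peak in all 6 lists, 10 in some and 1 in none, beside the 41.4% of all protein-coding genes. Among 16 CDK, cyclin and RB-E2F genes 14 were in all 6 lists, among 16 p53 targets 11, among 10 p53 partners and regulators 6, and all 3 remaining CDK inhibitors (Cdkn2c, Cdkn2d and Cdkn3). The gene with no peak in a replicate list was Trp73, a p53 relative, although the pooled BRG1 list held a promoter peak for it. With PBRM1 the largest mean promoter pileups were those of the DNA damage kinase Atm (2.81 FPM), Ccna2 (2.42) and Cdkn2d (2.42), and with BRG1 those of Cdkn2d (4.42 FPM), Atm (4.20) and Ccna2 (4.15), each above the mean of Cdkn1b. Among these, Wrap53 and Tigar are counted by the regions already described in the Trp53 and Ccnd2 windows. No test was made of the difference between members and further genes.

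**Figure D5:**
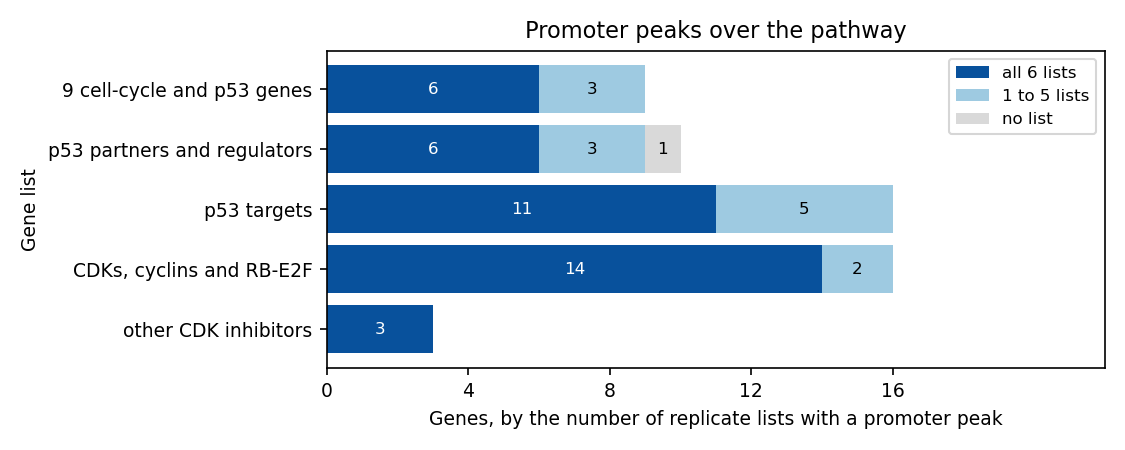
Number of genes (horizontal axis) of each list with a promoter peak in all 6 replicate lists, in 1 to 5 lists or in none. The 9 genes described here split 6 to 3, and CDKs, cyclins and RB-E2F genes 14 to 2.

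Markers of the labelled cell type were mixed. Of 8 smooth muscle genes, 5 (Acta2, Tagln, Smtn, Cald1 and Mylk) had a promoter peak in all 6 lists, Des in 4 and Myh11 in 1, while Cnn1 had none in any replicate or pooled list. Of 7 oviduct epithelium genes 0 were in all 6 lists and 4 (Epcam, Pax8, Ovgp1 and Foxj1) were in no replicate list, although Pax8 and Foxj1 were in both pooled lists and Epcam in that of BRG1. Of 3 endothelial genes 1 (Tek) was in all 6, and of 3 leukocyte genes 0 were. Promoter occupancy is no measure of expression, and the makeup of the cultures was not tested.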

How the data were processed

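The authors deposited a MACS 2.2.7.1 narrow peak list for each library and one per antibody on pooled replicates. Per the file headers, paired fragments were used without a control, with all duplicates kept at this step, a q cutoff of 0.05 and a local background of 10000 bp. Deposited values are the pileup signal at the summit, the fold enrichment ratio over local background and the −log10 q-value. The submitters' processing notes name cutadapt, Bowtie2 and GRCm38.p5; alignment filters are not given in the sources used here. Depth was 14284532 to 23992352 fragments per library, with 31970 to 39467 peaks each; the lowest listed pileup was 6 to 8 fragments.

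Peaks were joined into regions by an overlap of at least 1 bp and annotated with GENCODE M21 in Python 3.11.15; pileup was divided by header fragments. Regions in all 6 lists were compared on a log2 scale, computed here from the deposited pileup, with limma 3.58.1 (R 4.3.3, intensity trend, Benjamini-Hochberg over 12830 regions). The fit was checked on simulated data that held no shift shared by all regions, so the check does not cover the shared shift seen here. Library totals were compared with exact permutation tests. Motifs were searched in GRCm38.p6.

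The members and lists were chosen with earlier results of these data known. Named were all members with every promoter region and the 2 distal regions of largest summed pileup per gene. Of the wider pathway, genes without a promoter peak in any replicate list and the 3 of largest mean pileup per antibody were named. No sample columns were left unread. The replicate numbers come from the sample titles.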

Additional observations from a re-analysis of the deposited data

How the results depend on the processing

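Support and regions. With peaks limited to a −log10 q of at least 5, 3 promoters (Trp53, Cdkn1a and Cdkn1b) rather than 6 had a peak in all 6 lists and 3 in all PBRM1 lists, and 6 promoter regions rather than 10 were in all lists, with 3 distal regions in place of 14. Shares over all genes were not computed for the alternative settings of this paragraph. A promoter limit of 1 kb made 2 regions in all lists distal. Counting starts of member genes only gave 18 promoter and 24 distal regions, with 3 distal regions in all lists. A window of 10 kb held 6 distal regions, and one of 50 kb held 43 promoter and 26 distal regions, with 2 distal regions in all lists. Leaving out 1 library gave 0 to 1 distal regions in all remaining lists: without PBRM1 replicate 2 the one between the INK4 genes, and without BRG1 replicate 3 the one beyond Mdm2. CCAAT was at 3 rather than 6 member summits within 100 bp.

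Libraries. The distal difference (BRG1 minus PBRM1) changed sign to 0.333 peaks and 0.242 FPM with an equal number of strongest peaks from each list, and to 0.333 peaks and 2.34 FPM with a window of 50 kb. Leaving out 1 library gave -2.32 to 0.313 FPM, with the sign changed without PBRM1 replicate 1.

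Regions compared between antibodies. Of all regions, 6793 were higher with BRG1 and 53 with PBRM1; the counts were 314 and 288 after median centring, 102 and 157 after quantile normalization, and 1372 and 28 with fold enrichment. Peaks of −log10 q of at least 5 left 12 higher with PBRM1, and leaving out 1 library gave 31 to 77, with 33, 31 and 34 without PBRM1 replicate 1, PBRM1 replicate 2 and BRG1 replicate 3. Deviations of same-numbered libraries were nearly uncorrelated across regions (correlations of 6.19e-06, 0.00374 and -0.0286). This cannot show whether they came from the same cells, since the spread of single peak heights can hide a shared effect. The labels do not state whether the numbers pair the libraries. With the replicate block 6589 and 50 regions passed. Summed promoter pileup kept its difference of 14.6 FPM (exact sign-flip permutation p = 0.25, the smallest 3 pairs allow). At single member regions the sign turned at Cdkn1c with fold enrichment (-0.058) and, with quantile normalization, at Trp53 (-0.067) and Cdkn1b (-0.086). Of the 10 member regions, 0 passed after centring, after quantile normalization and in the exact permutation test alone (which cannot go below 0.1), and 1 (Tigar) passed with fold enrichment. Trp53, Cdkn1b and Cdkn2b lost the threshold without single libraries (limma adjusted p of 0.0508 to 0.215, 2, 2 and 3 of 6 cases): Trp53 without PBRM1 replicate 2 or BRG1 replicate 3, Cdkn1b without PBRM1 replicate 3 or BRG1 replicate 2, and Cdkn2b without PBRM1 replicate 3, BRG1 replicate 1 or BRG1 replicate 3. The 10 passed with the replicate block, without the trend and with the mean pileup, and the 6 left at −log10 q of at least 5 passed. The cause of these changes was not tested. The lists hold only peaks past the caller's cutoff, so a region missing from a list may hold signal below it.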
